A study of Mus musculus with 4 samples.

Results

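The reproductive homeobox (Rhox) genes Rhox5, Rhox6, Rhox9 and Rhox13 were followed in mouse embryonic stem (ES) cells sorted by the activity of a Zscan4 reporter. They were chosen by symbol, as 4 of the 14 Rhox symbols and of the 19797 gene symbols in the deposited RefSeq table, with no filter on expression. The cells were of the line MC1-ZE7, of strain MC1 (129S6/SvEvTac), whose Emerald fluorescence reports transcription of Zscan4, a gene cluster active in 2-cell embryos. All cells carried this reporter and were grown on gelatin without feeders, in medium with serum and leukemia inhibitory factor. Total RNA depleted of ribosomal RNA was sequenced from 2 libraries of the Emerald-positive high fraction (Em+) and from 2 libraries of Emerald-negative cells (Em-). No other treatment, time point or genotype was part of the comparison, which asked how Zscan4-positive cells differ from Zscan4-negative ones.

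Rhox genes encode homeodomain transcription factors and lie side by side on the X chromosome. Most are transcribed in testis, ovary, placenta or germ cells, and several of their promoters are known to be methylated and silent in other cells. Rhox5, first described as Pem, is the best known member, with transcripts in ES cells, placenta and Sertoli cells. Rhox6 and Rhox9, formerly Psx1 and Psx2, were described in placenta and germ cells, and Rhox13 in male germ cells.

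The RefSeq tables held 16468218 to 18953217 counts per library. Labels were checked with 5 genes of the 2-cell stage (Zscan4c, Zscan4d, Zfp352, Tcstv3 and Dux), whose summed FPKM was 53.0 and 60.8 for Em+ but 0.455 and 0.768 for Em-. This followed the sample titles, whereas a free-text field of each sample names the opposite fraction. All 8 ES cell markers were measured in the tested range, with a summed FPKM of 1397 to 1910 in Em+ and 1981 to 2009 in Em- cells. The ribosomal precursor model Rn45s took 7.95% of the counts in Em+ replicate 2 and 3.93% to 4.33% in each other library. The RefSeq counts were 43.45% and 49.01% of the read totals behind the deposited FPKM for Em+ and 50.73% and 51.14% for Em-, so FPKM runs lower in Em+ cells for genes at large. The median log2 difference over all tested genes was −0.14 on the log2(FPKM + 1) scale and 0.00 after TMM scaling. The labels do not say whether the 2 libraries of a fraction came from different cultures or sorts. The p-values therefore reflect the spread among these 4 libraries alone, and that spread may be technical. An exact two-sided permutation test of 2 against 2 libraries cannot go below p = 0.33, and the tests given here come from a model fitted across genes.

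The members are related in sequence to different degrees, which bears on how well their reads can be told apart. Every member, as well as Rhox10 and Rhox1, has 1 coding exon of exactly 46 bases in the GENCODE M21 annotation (GRCm38, the same assembly as mm10). It is exon 3 of 4 in Rhox5, Rhox6 and Rhox9, exon 2 of 3 in Rhox13 and Rhox10, and exon 4 of 5 in Rhox1. It is shown for the 6 genes because it sets the near-identical pair apart from the rest. Capitals mark the 12 positions at which all 6 sequences have the same base, and each sequence runs 5′ to 3′ along its gene.
Rhox5 (chrX:37806074-37806119, plus strand): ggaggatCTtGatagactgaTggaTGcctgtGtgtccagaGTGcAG
Rhox6 (chrX:37828415-37828460, plus strand): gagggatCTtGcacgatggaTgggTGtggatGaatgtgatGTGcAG
Rhox9 (chrX:37900280-37900325, minus strand): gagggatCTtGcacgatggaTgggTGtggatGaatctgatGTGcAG
Rhox13 (chrX:38123074-38123119, plus strand): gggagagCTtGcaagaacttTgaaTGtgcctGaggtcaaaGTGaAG
Rhox10 (chrX:38069399-38069444, plus strand): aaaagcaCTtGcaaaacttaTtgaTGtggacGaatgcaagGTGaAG
Rhox1 (chrX:37215550-37215595, minus strand): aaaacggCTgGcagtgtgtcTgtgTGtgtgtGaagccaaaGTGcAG
Rhox6 and Rhox9 were identical at 45 of the 46 bases (97.8%), whereas every other pair shared 47.8% to 63.0%. Across whole transcripts, 16.55% of the 50-base windows of Rhox6 and 19.09% of those of Rhox9 also occurred in the other gene of this pair. No 50-base window of Rhox5, Rhox13, Rhox10 or Rhox1 occurred in a transcript of another gene. How reads with several matches were counted is not given in the sources used here, so the values of Rhox6 and Rhox9 are uncertain as single entries, and those of the other genes have no such overlap at this window length.

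Rhox5 was the most abundant member and Rhox13 the second in all 4 libraries, on the scale of deposited FPKM, which corrects for transcript length. Rhox5 reached 36.0 FPKM in Em+ replicate 1, 24.3 in Em+ replicate 2, and 28.8 and 26.9 FPKM in the Em- pair. This placed it above 91.6% to 94.5% of all gene symbols. Rhox13 reached 6.39 and 4.96 FPKM in Em+ and 3.75 and 3.76 FPKM in Em- cells. Rhox6 stood at 1.36 and 1.13 FPKM in Em+ and at 1.22 and 1.52 FPKM in Em- cells. Rhox9 was the lowest member in every library, at 0.837 and 0.718 FPKM in Em+ and at 1.11 and 0.940 FPKM in Em- cells. The neighbours in this order lay apart by more than their spread in each group, with Rhox6 and Rhox9 closest, at 1.24 ± 0.163 against 0.777 ± 0.0841 FPKM in Em+ and 1.37 ± 0.207 against 1.02 ± 0.117 FPKM in Em- cells (SD, n = 2 each). Rhox13 made up 14.32% and 15.96% of the summed FPKM of the 4 members in Em+ cells, and 10.75% and 11.36% in Em- cells.

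Rhox13 rose in Em+ cells, and the other members did not pass the test. More cells that transcribe a gene and more RNA per cell cannot be told apart in such bulk libraries. Of the 3 members above the expression filter (a mean of at least 1 FPKM over the 4 libraries), 1 was higher and 0 were lower, whereas of 12050 genes tested 4.64% were called, 3.82% as higher and 0.822% as lower. The test was edgeR's quasi-likelihood test, and a gene was called when its p, adjusted by Benjamini and Hochberg's method, stayed below 0.05. The number of members lower was also 0 in DESeq2, in limma and at an unadjusted p below 0.05, which 25.3% of all genes met. Rhox9 lay below the filter and was tested only in a fit of all symbols without a filter.

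For Rhox13, 293 and 236 reads were counted in the Em+ pair and 169 and 176 in the Em- pair. After TMM scaling to CPM (counts per library scaled to a common depth) these were 16.3 and 14.9 CPM in Em+ and 9.29 and 9.27 CPM in Em- cells. Both Em+ libraries were above both Em- libraries, and the 2 Em- libraries were nearly equal. The mean rose from 9.28 ± 0.00993 to 15.6 ± 1.01 CPM (SD, n = 2 each), which is 1.68-fold. By edgeR the log2 fold change was 0.75 with an SE of 0.12 (adjusted p = 0.0120). Groups without overlap were seen in 59.4% of all genes tested, and in 29.7% with Em+ above Em-, so the separation alone says little. The call held without each of the 4 libraries in turn, at 0.68 to 0.81. Each of these fits leaves 1 library in a group, which is then assumed to vary like the other group. These fits called 21.9% and 9.43% of all genes higher when Em+ replicate 1 or 2 was left out, and 3.79% and 4.27% when Em- replicate 1 or 2 was (4.07% and 4.87% in either direction). It also held in DESeq2 (adjusted p = 0.00583), which called 5.75% of genes, 4.47% as higher. It did not hold in limma on log2(FPKM + 1), where the value was 0.48 (adjusted p = 0.0710), or on log2(FPKM + 0.1), where it was 0.57 (adjusted p = 0.0755).

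**Figure D1:**
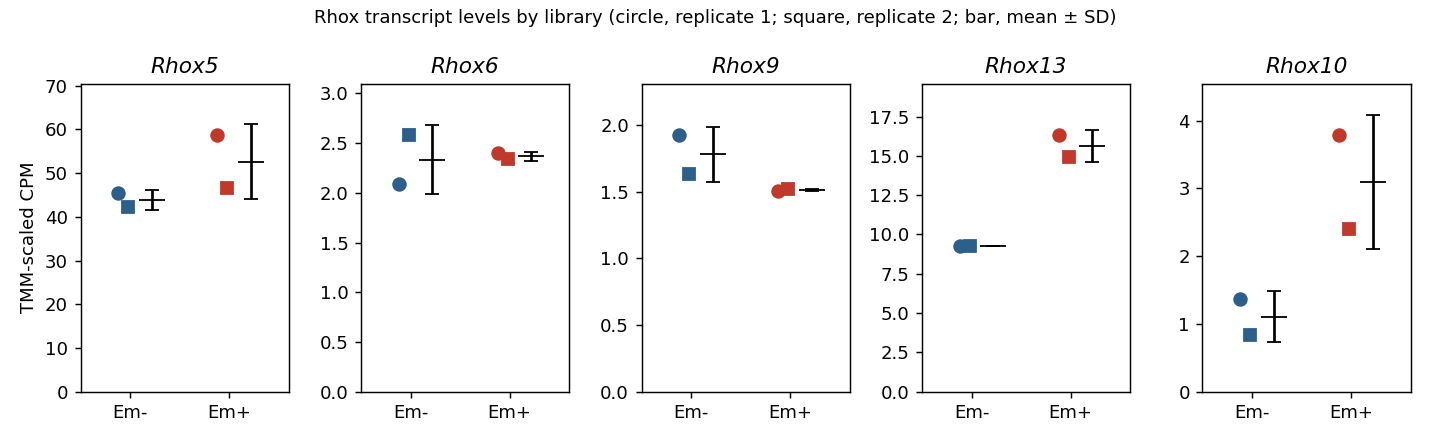
TMM-scaled CPM of Rhox5, Rhox6, Rhox9, Rhox13 and Rhox10 in each library (circles, replicate 1; squares, replicate 2; blue, Em-; red, Em+), with the mean and SD of each group as a black bar and each vertical axis starting at 0. Rhox13 sits at 9.29 and 9.27 CPM in Em- and at 16.3 and 14.9 CPM in Em+ cells, whereas the Rhox6 values of the groups overlap.

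Rhox5 did not pass the test, and its 2 Em+ libraries differed by more than the groups did. It had 1054 and 737 reads in Em+ and 828 and 803 in Em- replicates 1 and 2. The scaled levels were 58.7 and 46.6 CPM in Em+ and 45.5 and 42.3 CPM in Em- cells. Em+ replicate 1 stood high, while Em+ replicate 2 was only just above Em- replicate 1. The means were 52.7 ± 8.62 and 43.9 ± 2.26 CPM (SD, n = 2 each), and the log2 fold change was 0.26 (SE 0.12; adjusted p = 0.210 in edgeR). Leaving out Em+ replicate 1 gave 0.09 (adjusted p = 0.33). Leaving out Em+ replicate 2 gave 0.42, which was called (adjusted p = 0.00203) in a fit that called 16.3% of all genes.

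Rhox6 and Rhox9, the near-identical pair, did not pass either. Rhox6 had 43 and 37 reads in Em+ and 38 and 49 in Em- libraries, or 2.40 and 2.34 against 2.09 and 2.58 CPM. Its Em+ values lay between the 2 Em- values. The log2 fold change of Rhox6 was 0.02 (SE 0.22, edgeR adjusted p = 0.971), and its sign changed with the scaling and the filter. Rhox9 had 27 and 24 reads in Em+ and 35 and 31 in Em- libraries, or 1.50 and 1.52 against 1.92 and 1.63 CPM. Both Em+ values of Rhox9 were below both Em- values. Its log2 fold change was −0.29 (SE 0.27, edgeR adjusted p = 0.542 without the expression filter, a fit that called 5.95% of 19797 symbols, 4.48% as higher). At this depth, counting error alone leaves a wide range. The ratio of scaled summed counts, Em+ over Em-, had an exact 95% binomial interval from 0.738 to 1.39 for Rhox6 and from 0.578 to 1.24 for Rhox9, against 1.47 to 1.94 for Rhox13 and 1.13 to 1.29 for Rhox5. These intervals cover counting error only. Whether the fold changes of the members differ from each other was not tested.

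Among the 10 other Rhox symbols, 2 had at least 10 reads in all, Rhox10 and Rhox1, and both had higher values in Em+ cells. Rhox10, which takes part in forming spermatogonial stem cells, had 68 and 38 reads in Em+ and 25 and 16 in Em- libraries, or 3.79 and 2.40 against 1.37 and 0.843 CPM. Its log2 fold change was 1.50 (SE 0.34), and edgeR's adjusted p = 0.0519 missed the threshold narrowly. It passed the expression filter only through its Em+ level, since the Em- mean was 0.740 FPKM, so calls in filtered fits are no support for a rise. In the fit of all symbols without a filter it was 1.44 (adjusted p = 0.0380). Rhox1 had 31 and 22 reads against 12 and 12. Its log2 fold change of 1.21 (SE 0.34) did not pass in edgeR without the expression filter (adjusted p = 0.0704). The remaining 8 symbols (Rhox2a, Rhox2d, Rhox2h, Rhox3g, Rhox4a, Rhox7, Rhox8 and Rhox11) had 1 to 8 reads each over all 4 libraries, too few to compare. In the Em+ libraries Rhox10 stood next after Rhox13 by FPKM, at 1.88 ± 0.797, which does not differ from Rhox6 at 1.24 ± 0.163 beyond the spread. In the Em- libraries it stood below Rhox9.

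**Figure D2:**
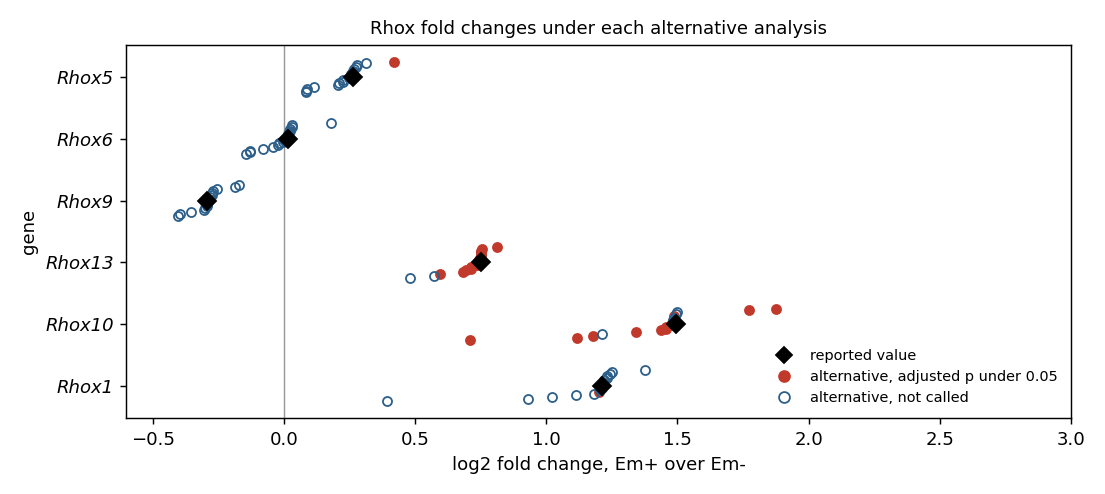
Log2 fold changes (Em+ over Em-, horizontal axis) of 6 Rhox genes as reported (black diamonds) and under each alternative analysis (red filled circles, adjusted p under 0.05; open blue circles, not called). Rhox13 stays between 0.48 and 0.81 in 18 alternatives, while Rhox6 lies on both sides of 0.

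The transcript models used for counting changed the level of some members more than they changed the comparison. The RefSeq model of Rhox13 (chromosome X, 38120840 to 38129966, 1254 bases) starts 379 bases before the ENCODE model (875 bases). The longer model held 1 more read in Em+ replicate 2 and the same number in each of the other libraries. With the shorter ENCODE model the level of Rhox13 was 9.15 and 7.09 FPKM in Em+ and 5.38 and 5.38 FPKM in Em- cells. Its log2 fold change was 0.74 in each of the known-gene, Ensembl and ENCODE tables, and it was called in all 3. The RefSeq model of Rhox6 (chromosome X, 37827055 to 37829857) is 145 bases shorter than the ENCODE model at its start and gave the same counts within 1 read. That of Rhox9 (chromosome X, 37899097 to 37901770) gave equal counts in both tables.

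Rhox5 differed more between models. Its RefSeq model (chromosome X, 37754608 to 37808878, 800 bases) begins 50234 bases before the first ENCODE model, so that its first exon lies far upstream. The ENCODE table held 2 Rhox5 models, and the one with 633 bases took nearly all reads. It had 1039 and 727 reads in Em+ and 806 and 784 in Em- libraries, against 10, 8, 4 and 7 for the other model. The RefSeq model held 5 and 2 more reads than both ENCODE models together in Em+ replicates 1 and 2, and 18 and 12 more in Em- replicates 1 and 2. These net differences equal 0.474% and 0.271% of the RefSeq reads of Rhox5 in Em+ and 2.17% and 1.49% in Em- cells. They are not counts of reads on the upstream exon, since the ENCODE model with few reads may hold reads that the RefSeq model lacks. Both Em- values were larger than both Em+ values, but their size depends on which ENCODE models are subtracted. The RefSeq model held 1054 and 737 reads in Em+ and 828 and 803 in Em- libraries, to set against the 633-base model alone. This difference was looked for after the values were seen and was not tested between libraries.

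The windows before the RefSeq starts of Rhox13, Rhox10 and Rhox5 are shown because Rhox13 was called, Rhox10 just missed the threshold, Rhox5 is the most abundant member, and promoter methylation is the known form of silencing here. Methylation itself was not measured. Each sequence is the 250 bases before the start in RefSeq's GRCm38.p6 annotation, 5′ to 3′ on the gene's strand, and capitals mark CpG dinucleotides, the sites of DNA methylation.
Rhox13 (chrX:38120590-38120839, plus strand): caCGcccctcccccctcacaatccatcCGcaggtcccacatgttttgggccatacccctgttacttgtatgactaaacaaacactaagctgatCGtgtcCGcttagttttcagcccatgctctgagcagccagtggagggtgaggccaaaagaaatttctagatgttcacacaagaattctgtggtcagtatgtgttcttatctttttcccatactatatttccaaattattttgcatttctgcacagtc
Rhox10 (chrX:38066225-38066474, plus strand): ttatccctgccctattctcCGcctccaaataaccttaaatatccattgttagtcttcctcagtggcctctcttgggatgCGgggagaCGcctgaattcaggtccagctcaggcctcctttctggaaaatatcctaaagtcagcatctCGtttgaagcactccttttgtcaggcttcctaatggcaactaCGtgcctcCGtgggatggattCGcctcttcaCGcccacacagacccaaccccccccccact
Rhox5 (chrX:37754358-37754607, plus strand): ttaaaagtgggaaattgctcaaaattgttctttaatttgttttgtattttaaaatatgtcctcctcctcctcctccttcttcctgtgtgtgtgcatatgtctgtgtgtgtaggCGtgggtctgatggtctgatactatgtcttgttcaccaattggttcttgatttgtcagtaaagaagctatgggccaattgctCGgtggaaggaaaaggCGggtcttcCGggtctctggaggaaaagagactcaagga
Rhox13 and Rhox5 each had 4 CpGs in this window and Rhox10 had 8, against a median of 6 over 32851 RefSeq promoters of the same length. The window of Rhox1, not printed here, had 0. As many or more CpGs than in Rhox13 were found in 62.2% of promoters, and as many or more than in Rhox10 in 43.0%. Neither the E-box CACGTG, a motif of the repressor subunits MAX and MGA, nor the E2F-type motif TCCCGC was found on either strand of the 3 windows, while 6.0% and 16.9% of all promoters held them. For Rhox13 and Rhox5 the window lies just before the bases that only the RefSeq model holds. In both genes the RefSeq model held few more reads than the ENCODE models or none, as given above. No entry was matched for Rhox6 and Rhox9.

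The Rhox cluster spans 916 kb of chromosome X (37213805 to 38129966), and the values within it did not run in 1 direction. In order along the chromosome, and in the fit without an expression filter, Rhox1 stood at 1.21, Rhox5 at 0.21, Rhox6 at −0.04, Rhox9 at −0.29, Rhox10 at 1.44 and Rhox13 at 0.69 on the log2 scale. Rhox7 and Rhox8, with 8 and 2 reads in all, lie between Rhox6 and Rhox9. How the values vary with position was not tested. The cluster was compared with the 25 other genes within 1 Mb of its ends. Of the 20 tested, 2 rose and 1 fell, where 3.82% of all genes rose and 0.822% fell, and their median log2 fold change was −0.02, against 0.00 over all genes tested.

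Lonrf3, which encodes a protein with a RING domain, rose by 1.79 on the log2 scale (SE 0.08, edgeR adjusted p = 1.11e-05) at 846.9 kb from the cluster. Akap17b was higher at 0.39 (adjusted p = 0.0413) and Pgrmc1, a heme-binding membrane protein gene, lower at −0.37 (adjusted p = 0.0414). Akap17b was called in 8 and Pgrmc1 in 13 of 18 alternatives. Neither was called in limma or when an Em- library was left out, and Akap17b was not called in DESeq2 (adjusted p = 0.0737). The nearest listed gene on the side of Rhox1 was Gm9, 2.8 kb away, with 33 and 28 reads in Em+ and 12 and 5 in Em- libraries. Without the expression filter, which it did not pass, its log2 fold change was 1.91 (SE 0.41, edgeR adjusted p = 0.0271). Gm9 was called in 14 of 18 alternatives, 1 of which, the fit without a filter, is the reported fit of this gene. It was not called in DESeq2, in limma or without Em- replicate 2, where it was 1.39. On the side of Rhox13 the nearest was Zbtb33, which encodes the methyl-CpG-binding protein Kaiso, at 59.8 kb. Zbtb33 stood at 0.38 (SE 0.16, edgeR adjusted p = 0.201) and was called in 2 of the fits that left out a library, at 0.56 with Em+ replicate 1 left out (adjusted p = 0.00935) and at 0.60 with Em- replicate 2 left out (adjusted p = 0.0172). Over the whole X chromosome outside Rhox, 33 of 384 tested genes were higher and 4 were lower, or 8.59% higher against 3.82% of all genes tested, a count added after the values were seen.

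**Figure D3:**
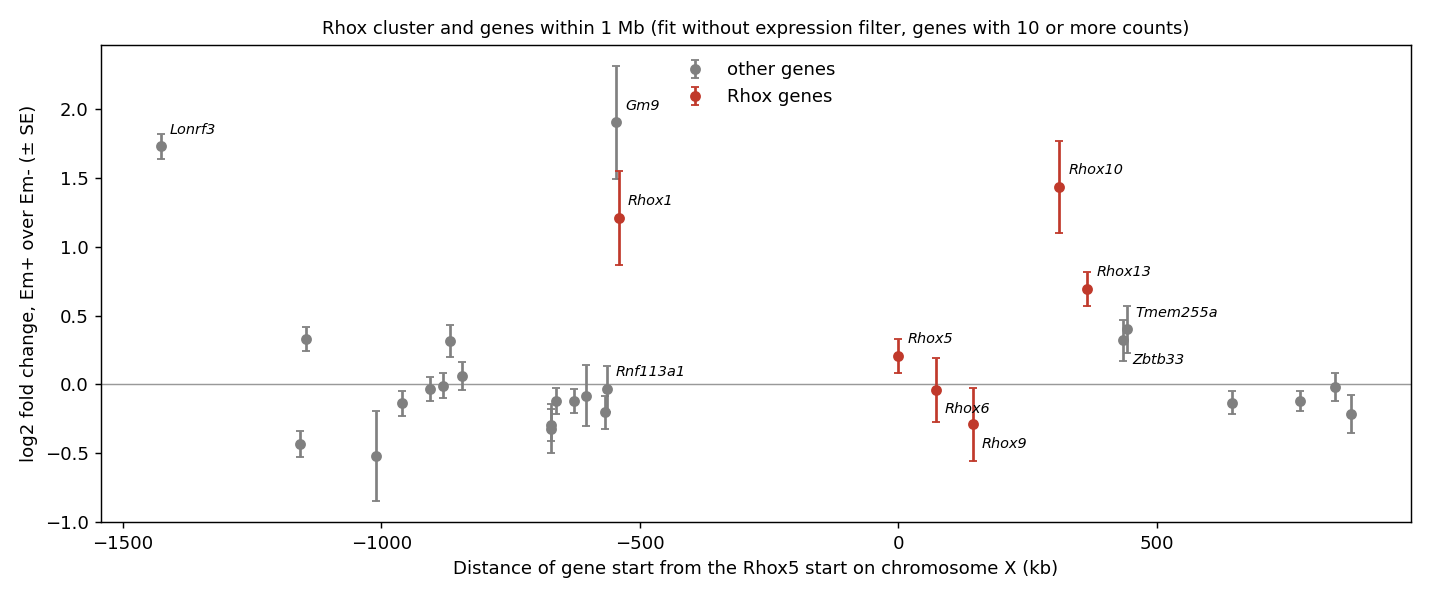
Log2 fold change with its SE (vertical axis) against the distance of each gene's start from the start of Rhox5 (horizontal axis, kb) for Rhox genes (red) and other genes within 1 Mb of the cluster (grey), from the fit without an expression filter and for genes with 10 or more reads. Rhox10 and Rhox13 on one side and Rhox1 and Gm9 on the other lie above Rhox5, Rhox6 and Rhox9.

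Genes known to keep germline and Rhox promoters silent did not pass the test in the reported fit, and 2 of them were close to the threshold. The list of 22 holds DNA methyltransferases, histone H3K9 methyltransferases, subunits of a germline Polycomb complex and linker histones, and all 22 were tested. Of these 0 were higher and 0 were lower in edgeR, and the median log2 fold change was −0.10. There were 6 under an unadjusted p of 0.05 in edgeR, a level that 25.3% of all genes met, all with lower values in Em+ cells. They were Ehmt2 and the linker histone genes Hist1h1a (−0.25), Hist1h1b, Hist1h1c (−0.28), Hist1h1d and Hist1h1e (−0.30). The linker histone gene H1f0 stood at −0.03. Dnmt1, the maintenance DNA methyltransferase, stood at −0.12 on the log2 scale (adjusted p = 0.259 in edgeR), with means of 182 ± 5.87 CPM for Em+ and 199 ± 1.12 CPM for Em- (SD, n = 2 each). Dnmt3b, which methylates new sites, stood at −0.12 (adjusted p = 0.268), the H3K9 methyltransferase gene Ehmt2 at −0.24 (adjusted p = 0.149) and the Polycomb gene Pcgf6 at 0.09 (adjusted p = 0.491). Without Em+ replicate 1, a fit that called 41.4% of all genes, Dnmt1 (−0.16, adjusted p = 0.0112), Dnmt3b (−0.14, adjusted p = 0.0368) and Ehmt2 (−0.35, adjusted p = 6.26e-04) were called lower, and Pcgf6 was not. The lowest values were those of the linker histone genes Hist1h1d (−0.45, adjusted p = 0.0517) and Hist1h1b (−0.40, adjusted p = 0.0519), named after their values were seen. Both just missed the threshold. Hist1h1d was called lower in 9 and Hist1h1b in 8 of 18 alternatives, among them DESeq2 (adjusted p = 2.52e-04 and 0.00238), the fit without a filter (0.0186 and 0.0270) and those without either Em+ library, but neither was called in limma or without either Em- library. Of the 4 DNA demethylation genes (Tet1, Tet2, Tet3 and Tdg) 2 were tested, and 0 were called by edgeR, with 0 under an unadjusted p of 0.05.

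Other germline genes that DNA methylation is known to silence were counted in the same fit. Of 23 tested members of a list of 26, 13 were higher and 0 were lower (56.5% higher, against 3.82% of all genes tested), and the median log2 fold change was 0.64 against 0.00. DESeq2 called 12 higher and 0 lower, where it called 4.47% of all genes higher. With limma on log2(FPKM + 1) these were 8 and 0, where 226 of 12050 genes were called higher. Without 1 library the median log2 fold change of the tested members was 0.53 to 0.78. The list was put together with earlier results on some of its genes known and is a description of these libraries. Asz1, a gene of the piRNA pathway, rose from 1.89 ± 0.741 to 7.80 ± 1.11 CPM, a log2 change of 2.05 (SE 0.25; adjusted p = 0.00401 in edgeR). Of the 13 called, Asz1 was the 1 that passed the filter only through its Em+ level, and without the filter it stood at 1.99 (adjusted p = 0.00129). Tuba3b, a tubulin gene of the testis, rose by 1.40 and Slc25a31, a testis form of the mitochondrial ADP/ATP carrier, by 1.24 on the log2 scale. Dazl, a germ cell RNA-binding protein gene, rose by 0.98 and the X-linked gene Taf7l, a form of a TFIID subunit, by 0.97. The remaining called members were Ddx4, Fkbp6, Mael, Rpl10l, Stk31, Syce1, Sycp1 and Tdrkh. Rhox13 at 0.75 lay inside the range of the called genes, from Ddx4 at 0.38 to Tuba3b at 1.40 with Asz1 left aside. Zfp42 at 0.02 (adjusted p = 0.902), which is also an ES cell marker, and Hormad1 at 0.00 (adjusted p = 0.985) were among the members that did not pass.

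**Figure D4:**
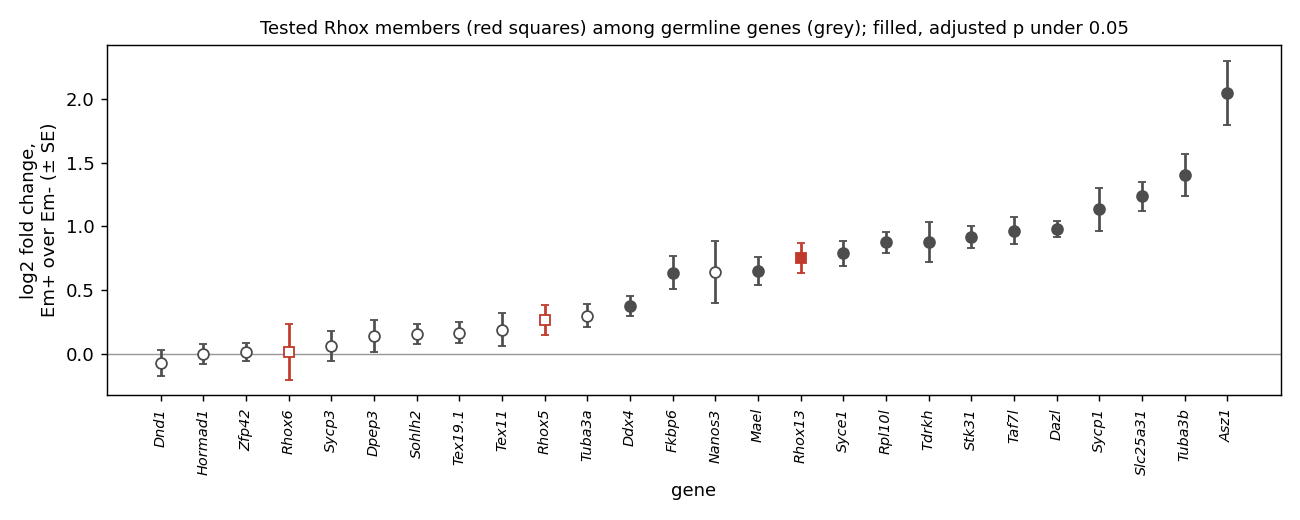
Log2 fold change with its SE for the 23 tested germline genes of the list (grey circles) and the 3 tested Rhox members (red squares), ordered by value, with filled symbols for adjusted p under 0.05. Rhox13 lies among the called germline genes, and Rhox5 and Rhox6 lie among those not called.

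Of 26 other X-linked germline genes 6 were tested, and Taf7l and Usp26 rose, Usp26 by 1.45 on the log2 scale (edgeR adjusted p = 1.14e-04). The median of the 6 was 0.47, and the share of genes called higher was 3.82% over all genes and 8.59% over X-linked genes. Of 22 other paired-like homeobox genes 3 were tested, with a median of 0.45. Otx2 was lower at −0.40 (edgeR adjusted p = 0.0596, and 0.0356 at −0.45 without the filter). Crxos stood at 0.45 (edgeR adjusted p = 0.169). Obox6 rose from 0.908 ± 0.430 to 6.58 ± 1.97 CPM, by 2.85 on the log2 scale (adjusted p = 0.00368 in edgeR). Obox6 passed the filter only through its Em+ level, and without the filter it stood at 2.79 (adjusted p = 9.68e-04). Unc5c and Ins2, reported targets of Rhox5, had no RefSeq entry under these symbols, so no values can be given for them.

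Markers of other cell types, some of which transcribe Rhox genes, were measured beside these values. Of 4 tested trophoblast and placenta markers 0 were called, with a summed FPKM over the list of 14.4 and 17.5 in Em+ and 17.5 to 17.6 in Em- libraries. The trophoblast factor Cdx2 had the fewest reads of those listed, 1 and 3 in Em+ and 2 and 1 in Em- libraries. Krt18 had the most, 436 and 358 in Em+ and 399 and 426 in Em- libraries. Of 2 tested extraembryonic endoderm markers 0 were called (17.4 and 22.8 against 24.3 and 25.8 FPKM). Afp had the fewest reads, 1 and 3 against 1 and 0, and Col4a1 the most, 4629 and 3604 against 4922 and 5516. Of 8 tested primordial germ cell markers 0 were called (60.4 and 79.9 against 81.8 and 83.4 FPKM). In these 3 lists 2, 1 and 4 of the tested members were under an unadjusted p of 0.05 in edgeR, as were 25.3% of all genes. The 1 tested fibroblast marker, Thy1, rose by 0.89 (edgeR adjusted p = 0.00386), and the list summed to 5.07 and 6.16 FPKM in Em+ against 3.24 and 3.47 FPKM in Em- libraries. Below the filter, Col1a1 had 45 and 47 reads in Em+ and 18 and 28 in Em- libraries, and Col1a2 18 and 21 against 12 and 8. The other 4 of the 7 fibroblast markers listed, Col3a1, Postn, Lum and Dcn, had no RefSeq entry under these symbols. Of the 8 ES cell markers, Nanog rose by 0.48 (edgeR adjusted p = 0.0192) and 0 were called lower. The median log2 fold change of the 8 was −0.09, 4 had values above 0, and 5 were under an unadjusted p of 0.05 in edgeR. Besides Nanog these were Sox2 (−0.29), Pou5f1 (−0.27), Esrrb (−0.19) and Klf4 (0.27), none of them called. Nanog was called in 13 of 18 alternatives, but not in limma, with library totals behind FPKM or without either Em- library. The part of these differences in the Rhox13 value was not tested.

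The genes with the most similar pattern over the 4 libraries were found for each member, among tested genes of similar level outside Rhox. Likeness was the Euclidean distance of mean-centred log2(CPM + 1). Genes chosen in this way share the member's pattern by the choice itself, so their values add no support for it. For Rhox13 these were Plet1 (distance 0.0469), 4930433N12Rik (0.0591) and Pramef8 (0.0661) among 6564 candidates, with log2 fold changes of 0.73, 0.84 and 0.64. For Rhox5 they were Nqo1, Fosb and Ckb (0.0400 to 0.0598, 8353 candidates), for Rhox6 Dyx1c1, Lhb and Stk19 (0.0305 to 0.0422, 1870 candidates), and for Rhox9 Tmub1, Snord35b and Pex11a (0.0182 to 0.0351, 1298 candidates). None of the 12 lies on the X chromosome, but only 384 of 12050 tested genes were X-linked and outside Rhox, so this says little. By that choice, the 3 genes most like Rhox5 share its high value in Em+ replicate 1. Nqo1 stood at 37.5 and 29.3 CPM in Em+ and 28.2 and 27.2 CPM in Em- cells.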

How the data were processed

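Per the labels' protocols, ribosomal RNA was removed from the RNA of sorted cells and strand-specific libraries were sequenced on an Illumina HiSeq. The authors deposited a raw count and an FPKM value for each transcript and library in 4 tables (RefSeq, known-gene, Ensembl and ENCODE models, per the file headers). The submitters' processing notes list Bowtie2 and mm10. The sources used here give neither the counting program nor its strand setting. Transcript length was taken from the deposited tables. For Em- replicate 1 every RefSeq and Ensembl count is 0, so these 2 columns were not used. Its counts were computed from FPKM, length and the library total of the known-gene table, and rounded to whole numbers. Among 12803 transcripts with the same length and the same counts in the other 3 libraries in both tables, 99.57% then equalled the known-gene count exactly.

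Counts and FPKM were summed per RefSeq symbol. The test was edgeR 4.0.16 (quasi-likelihood, TMM, two-sided, R 4.3.3), with adjustment over 12050 genes of mean FPKM of at least 1. The edgeR script was tested on simulated counts with known fold changes. No row lacked a gene symbol. DESeq2 1.42.0, limma 3.58.1 and other scalings, filters and annotations were alternatives. The members and lists were chosen with earlier results of these data known. Named genes followed a rule, with exceptions. It took the 4 members, other Rhox genes with at least 10 reads and called members of each list (5 or fewer, otherwise the 3 with the largest change). It also took 7 set genes (Dnmt1, Dnmt3b, Ehmt2, Pcgf6, Dazl, Taf7l and Zbtb33), the genes next to the cluster and the 3 genes most like each member. Others were named outside this rule with their values known. Among them are Cdx2, Krt18, Afp, Col4a1, Col1a1, Col1a2, Zfp42, Hormad1, Sox2, Pou5f1, Esrrb, Klf4, Otx2 and Crxos. The linker histone genes and the remaining called germline genes are others. Starts are given 1-based, and promoter sequences are from RefSeq (GRCm38.p6), matched by symbol for 4 of 6 Rhox genes.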

Additional observations from a re-analysis of the deposited data

How the results depend on the processing

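Rhox13 was higher in all 18 alternatives and called in 16, the exceptions being limma on log2(FPKM + 1) (0.48) and log2(FPKM + 0.1) (0.57). Without 1 library it ranged from 0.68 to 0.81. Rhox5 was positive in all 18 and called in 1, without Em+ replicate 2, and ranged from 0.085 to 0.42 without 1 library. Rhox9 was negative in all 17 and called in none, from −0.40 to −0.17 without 1 library. Rhox6 was called in none and changed sign with library totals behind FPKM (−0.14), limma on log2(FPKM + 1) (−0.078) and log2(FPKM + 0.1) (−0.13), no filter (−0.041), filterByExpr (−0.021) and a minimum mean FPKM of 0.1 (−0.020). Without 1 library it ran from −0.13 to 0.18. The cause was not tested. The median of all genes moved to −0.14 in limma on log2(FPKM + 1) and to −0.16 with library totals, where 334 genes were higher and 293 lower against 460 and 99.

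The 559 calls over all genes became 293 and 269 in limma (pseudocount 1 and 0.1), 1178 without a filter, 1247 with filterByExpr and 1109 with a minimum mean FPKM of 0.1, which test more genes. Without 1 library they ran from 490 to 4992, with 4992 without Em+ replicate 1 and 1968 without Em+ replicate 2. With the replicate block they were 1552. Rhox13 stayed called there (0.75, edgeR adjusted p = 7.01e-04), and Rhox10 stood at 1.48 (edgeR adjusted p = 7.94e-04). Rhox10 passed the expression filter of this fit only through its Em+ level, so its call there is no support for a rise. The labels do not say whether samples with the same number were paired. Their deviations had a correlation of 0.0235 over the tested genes, which cannot decide it. The count of germline genes was 8 in both limma fits, which called 226 (pseudocount 1) and 215 (pseudocount 0.1) of all genes higher. Without 1 library their median log2 fold change was 0.53 to 0.78. Rhox10, Rhox1 and the germline count were added to these alternatives after the data were seen. Depth limits the genes with few reads, which are Rhox6 (167 in all), Rhox10 (147), Rhox9 (117) and Rhox1 (77).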
